A study of Mus musculus with 11 samples.

Results

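The comparison described here is between leukaemic short-term haematopoietic stem cells (ST-HSC) taken from hosts whose marrow niche lacked Cxcl12 and from hosts whose niche was intact, without drug treatment. The members are the 5 vehicle libraries of the 11 in the series, chosen by the column names of the deposited count table: 2 libraries labelled Cre_pos (numbers 249 and 275, genotype CXCL12 KO) and 3 labelled Cre_neg (numbers 240, 253 and 265, genotype CXCL12 WT). They are called KO 249, KO 275, WT 240, WT 253 and WT 265 below. All hosts were C57BL/6j mice that had received bone marrow of an acute myeloid leukaemia (AML) with the Flt3-ITD allele and TET2 KO, so by the labels every group shares the leukaemia and its alleles, and the 2 vehicle groups differ in host genotype and Cre. ST-HSC were then sorted from bone marrow by flow cytometry and their RNA was sequenced. The other 6 libraries came from hosts given cytarabine, doxorubicin and quizartinib (3 per genotype). The labels do not give the promoter that drives Cre, the cells in which Cxcl12 was deleted, the age or sex of the animals, or whether each library is a separate animal. The effect of carrying Cre and the effect of losing Cxcl12 therefore cannot be told apart, and any p-value speaks only of how these libraries scatter. In sorted bulk RNA, a smaller share of cells of a type and less RNA per cell cannot be told apart either.

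CXCL12 is a chemokine made by stromal cells of the marrow, among them perivascular cells with long processes, and it holds haematopoietic stem cells in the niche through its receptor CXCR4. Stem and progenitor cells that receive erythropoietin or thrombopoietin signals move towards the red-cell or the megakaryocyte lineage, under the control of GATA1 and its partners, which bind GATA motifs near their target genes. Flt3-ITD is an internal tandem duplication that keeps the FLT3 receptor kinase active, and TET2 is an enzyme that oxidises methylated cytosine in DNA. The series' title names p38 MAPK signalling, a stress kinase pathway, as the link between the niche and the leukaemic stem cell.

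No gene passed the test. Of 16639 genes tested, 0 had a Benjamini-Hochberg adjusted p under 0.05 in edgeR's quasi-likelihood test (0%), and the smallest adjusted p was 0.267. Without adjustment, 1128 genes (6.78%) had a p under 0.05, of which 799 were higher (4.8%) and 329 lower (1.98%) in the KO niche. DESeq2's Wald test on the same counts called 178 genes higher (1.07%) and 46 lower (0.276%), with 2530 genes given no adjusted p. In 2194 genes both KO libraries lay above every WT library (13.2%), and in 1243 both lay below (7.47%), together 3437 genes (20.7%). The fold change was positive in 48.7% of genes and its median over all genes was 0. The values below are therefore given as measurements in 5 libraries, and "higher" and "lower" compare these libraries and do not mark a called difference.

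The 5 libraries held 8.13 to 22.2 M gene counts. The first principal component of log2 CPM (counts relative to the library total, scaled by TMM) took 44.2% of the variance and set WT 253 apart, and the second took 29.1% and set WT 265 apart. Genes with at least 1 count numbered 13589 in WT 253 and 14206 in WT 265, against 17301 to 18228 in the other 3 libraries. The share of reads outside annotated genes was 28.7%, 18.0% and 28.8% in WT 240, 253 and 265 and 18.8% and 9.41% in KO 249 and 275. Mitochondrially encoded genes took 27.4%, 22.1% and 17.2% of gene counts in the WT libraries and 14.2% and 8.79% in the KO libraries. Xist, the RNA of the inactive X, ranged from 0 CPM in WT 253 to 80.7 CPM in WT 265, so libraries of 1 group also differed in something the labels do not give. The biological coefficient of variation was 0.783.

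The label of the sorted cells was checked with the surface genes used to sort stem and progenitor cells. Kit, the receptor of stem cell factor, was at 79.0, 73.9 and 102 CPM in WT 240, 253 and 265 and at 159 and 167 CPM in KO 249 and 275. Cd34 ranged from 111 to 455 CPM, Flt3 from 70.6 to 340 CPM and Cd48 from 184 to 464 CPM over the 5 libraries. Ly6a, which encodes Sca-1, the antigen that with KIT defines the stem cell gate, was at 61.5, 1.11 and 10.2 CPM in the WT libraries and 44.8 and 21.3 CPM in the KO libraries. It was thus nearly absent from WT 253. Slamf1, which encodes CD150, a marker of long-term stem cells, had no count in the 3 WT libraries and stood at 1.92 and 2.50 CPM in the KO libraries. Its mean was at least 30.0-fold higher in the KO niche, set against a floor of 3 counts over the WT group. Mpo, the myeloperoxidase of early myeloid granules, ran from 7854 to 15768 CPM, so all 5 libraries held a strong myeloid signal beside the sort markers.

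The gene deleted in the host and the gene lost from the graft do not check the labels in these cells. Cxcl12 was at 14.4, 0 and 0.123 CPM in WT 240, 253 and 265 and at 0 and 5.36 CPM in KO 249 and 275, and the sorted cells are not the cells that make it. Tet2 was at 18.4, 11.7 and 15.9 CPM in the WT libraries and 25.3 and 19.0 CPM in the KO libraries. The counts cover the whole gene, and the labels do not give the deleted part.

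Genes of red-cell precursors held the smallest p-values among the genes named here, with Epor, Add2 and Trim10 in front. Sequences before the start of 4 of them, chosen after their values were seen, are shown first, because GATA factors are the known regulators of this lineage and in these 4 genes both KO libraries lay above all WT libraries. Each run is the 250 bases before the gene's start, written 5′ to 3′ on the strand of the gene, from RefSeq on build GRCm38.p6, which is not the build of the deposited counts (GRCm39). Capitals mark matches to GATAA on either strand, which reads TTATC on the other strand. The intervals are chr9:21963577-21963826 (minus strand) for Epor, chr6:86028431-86028680 (plus strand) for Add2, chr17:36869324-36869573 (plus strand) for Trim10 and chr17:40810899-40811148 (plus strand) for Rhag.
Epor: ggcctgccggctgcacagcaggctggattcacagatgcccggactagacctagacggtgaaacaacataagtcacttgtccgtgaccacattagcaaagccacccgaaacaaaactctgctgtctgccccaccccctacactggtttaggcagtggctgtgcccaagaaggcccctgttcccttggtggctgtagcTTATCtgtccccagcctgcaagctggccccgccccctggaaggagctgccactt
Add2: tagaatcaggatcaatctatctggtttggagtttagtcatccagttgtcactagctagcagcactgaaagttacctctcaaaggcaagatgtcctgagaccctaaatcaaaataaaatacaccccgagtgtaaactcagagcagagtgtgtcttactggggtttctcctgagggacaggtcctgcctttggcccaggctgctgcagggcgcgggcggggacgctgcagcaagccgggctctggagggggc
Trim10: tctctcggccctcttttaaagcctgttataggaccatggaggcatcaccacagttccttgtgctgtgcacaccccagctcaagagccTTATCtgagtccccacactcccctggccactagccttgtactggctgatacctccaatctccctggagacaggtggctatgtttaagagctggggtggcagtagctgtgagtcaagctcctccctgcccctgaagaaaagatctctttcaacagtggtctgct
Rhag: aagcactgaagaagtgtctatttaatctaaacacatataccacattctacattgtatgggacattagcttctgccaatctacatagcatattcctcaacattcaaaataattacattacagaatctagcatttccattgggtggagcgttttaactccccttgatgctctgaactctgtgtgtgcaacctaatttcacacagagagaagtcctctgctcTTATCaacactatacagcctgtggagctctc
Epor, Trim10 and Rhag each hold 1 match, whose first base is at position -54, -163 and -31 from the start, and Add2 holds 0. Of all 27025 genes with a RefSeq promoter of this length, 6883 (25.5%) hold a match in at least 1 promoter. Of the red-cell membrane and maturation genes with a promoter in the table, 10 of 22 (45.5%) hold one, and of the megakaryocyte genes 7 of 14 (50%). A match of 5 bases describes the letters only and is not evidence of binding.

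The erythropoietin receptor was among the genes with the smallest p of those named here. Epor (ENSMUSG00000006235.7) was at 0.194, 0.175 and 0.123 CPM in WT 240, 253 and 265, which is 1 to 3 counts per library, and at 5.15 and 16.7 CPM in KO 249 and 275. Both KO libraries lay far above the 3 WT libraries, with a log2 fold change of 5.97 ± 1.23 (SE) and an edgeR adjusted p of 0.452. The other genes of its list are the transcription factors of the lineage. Klf1, the factor that switches on adult globin genes, was at 3.30, 3.91 and 9.73 CPM in the WT libraries and 10.7 and 50.9 CPM in the KO libraries (2.46 ± 1.14 on the log2 scale). Gata1 overlapped between groups, at 4.39, 0.175 and 19.6 CPM against 7.43 and 21.2 CPM. Lmo2, which bridges GATA1 and TAL1, was at 163 to 238 CPM in the WT libraries and at 272 and 217 CPM in the KO libraries. Over the 11 genes of this list, Epor among them, 5 fold changes were positive and 6 negative, with a median of -0.10. That split rests on WT 265, without which 10 were positive and 1 negative, with a median of 1.09.

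Genes of the red-cell membrane and its skeleton had a higher median than any other blood lineage list except the globins. Of 18 genes listed, 17 passed the filter on low counts, 16 were positive and 1 negative, and the median log2 fold change was 3.85. With an unadjusted p under 0.05, 10 were higher and 0 lower, and in 8 both KO libraries lay above the WT range, beside 4.8% and 13.2% of all genes. The filter kept some of these genes through the groups where they are high, so the counts are a description. Add2 (ENSMUSG00000030000.11), the beta-adducin that caps actin at the spectrin skeleton, was at 0.258, 0.0583 and 0.123 CPM in the WT libraries and 5.10 and 12.1 CPM in the KO libraries. Its log2 fold change was 5.81 ± 1.20 (edgeR adjusted p = 0.452). Rhag (ENSMUSG00000023926.9), the membrane channel that carries the Rh complex, was at 3.30, 0.0583 and 0.246 CPM against 22.6 and 52.0 CPM, a log2 fold change of 4.90 ± 1.34 (edgeR adjusted p = 0.552). Epb42, or protein 4.2, which ties band 3 to ankyrin, was at 0.194, 0.0583 and 0.123 CPM against 1.34 and 31.5 CPM. In Add2, Rhag and Epb42 the groups did not overlap, and in each KO 275 was the highest library. Without KO 275 the median of the membrane list was 0.85, and KO 249 lay above the WT range in 8 of the 17 genes and KO 275 in 16. Over all genes tested, 22.2% lay above the WT range in KO 249 and 23.5% in KO 275.

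Genes of red-cell maturation showed the same order of libraries. All 15 listed genes were tested and had a positive fold change, with a median of 2.16, or 0.77 without KO 275. The filter kept some of them, such as Pklr, through the groups where they are high, so these counts are also a description. With an unadjusted p under 0.05, 6 were higher and 0 lower, beside 4.8% and 1.98% of all genes. In 8 both KO libraries lay above the WT range, beside 13.2% of all genes. Fitted on the vehicle libraries only, 3 were higher at that level, beside 2.12% of all genes. Trim10 (ENSMUSG00000073400.7), a tripartite-motif protein of late erythroid cells, was at 0.194, 0.117 and 0.369 CPM in the WT libraries and 2.64 and 43.2 CPM in the KO libraries. Its log2 fold change of 6.77 ± 1.47 (edgeR adjusted p = 0.485) was 3.66 without KO 275. Pklr, the pyruvate kinase of red cells and liver, had no WT count and stood at 1.75 and 0.900 CPM in the KO libraries, at least 18.0-fold higher against the floor. Cd36, a fatty acid receptor present on early erythroid cells, was at 0.711, 0.233 and 0 CPM in the WT libraries and 0.134 CPM in KO 249, but at 39.2 CPM in KO 275. In Cd36 a single library carried the difference.

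Haem synthesis and the globins followed KO 275 alone. Of 11 haem enzymes and transporters 10 were positive and 1 negative, with a median of 0.91, or 0.18 without KO 275. Of these, 2 were higher with an unadjusted p under 0.05, beside 4.8% of all genes. Alas2, the first enzyme of haem synthesis in erythroid cells, was at 8.98, 1.11 and 3.33 CPM in WT 240, 253 and 265, 6.22 CPM in KO 249 and 407 CPM in KO 275. Its log2 fold change of 5.52 ± 1.5 was 0.53 without KO 275. Uros, which closes the porphyrin ring, was at 8.14, 5.13 and 14.0 CPM against 14.1 and 49.2 CPM, and Tmem14c, which brings porphyrin into mitochondria, was at 135, 72.4 and 102 CPM against 139 and 249 CPM. In both, KO 249 lay just above the highest WT library. Hbb-bs, an adult beta-globin, was at 436, 24.0 and 30.9 CPM in the WT libraries, 124 CPM in KO 249 and 8160 CPM in KO 275. Hba-a1, an alpha-globin, was at 385, 19.8 and 38.8 CPM against 92.3 and 5188 CPM. Both globins in KO 249 lay within the WT range, and the fold change of Hbb-bs (4.66 ± 1.53) turned to -0.31 without KO 275. Globin genes are near-identical copies, so the split of reads between them is uncertain.

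**Figure D1:**
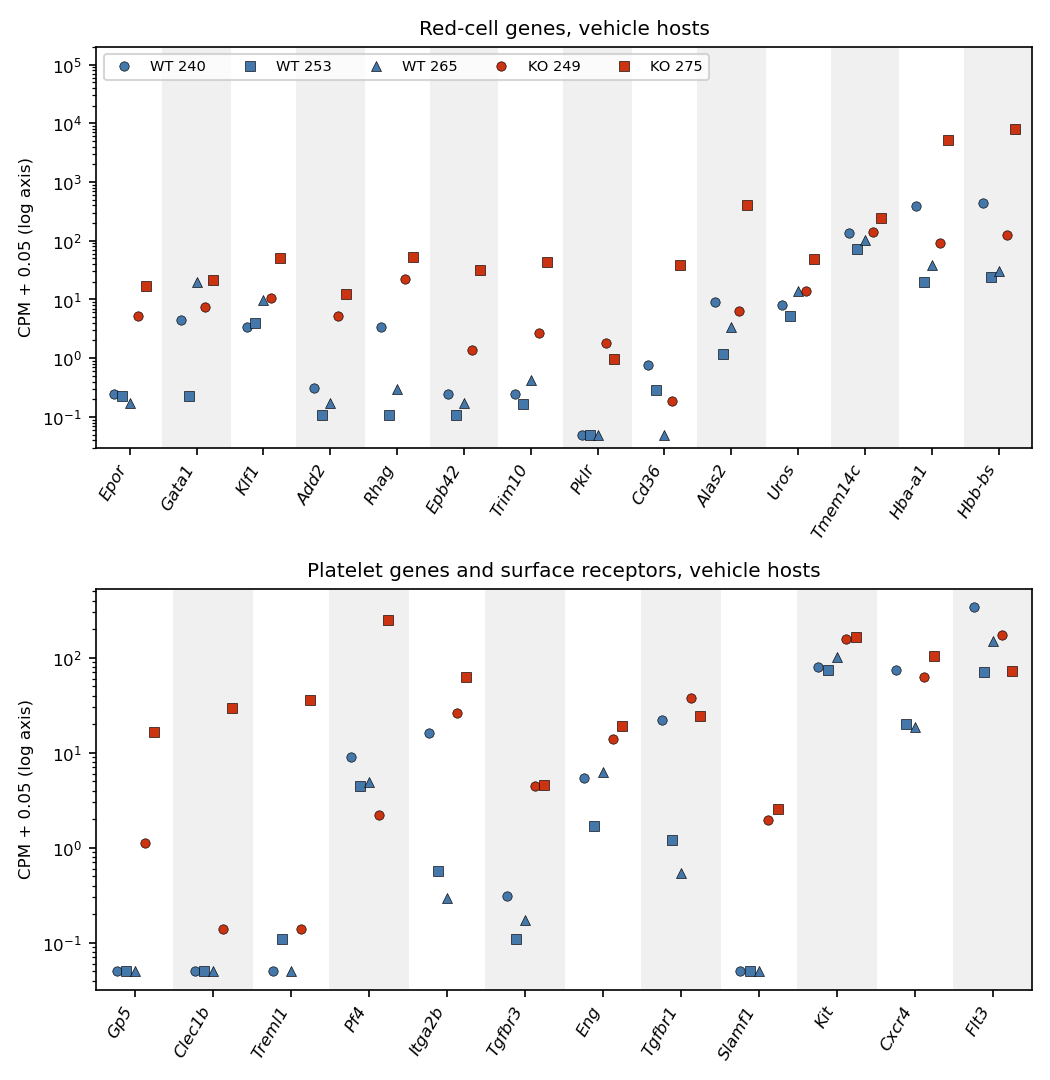
Level of each gene in the 5 vehicle libraries, as CPM + 0.05 on a log axis, with 1 point per library (blue for the 3 WT niche libraries, red for the 2 KO niche libraries) and no averaging. Top, red-cell genes: Epor, Add2, Rhag, Epb42, Trim10 and Pklr have both red points above all blue points, whereas Cd36, Alas2, Hba-a1 and Hbb-bs have only KO 275 above. Bottom, platelet genes and surface receptors: Tgfbr3, Eng and Slamf1 have 2 close red points above the blue ones, and Clec1b and Pf4 are high in KO 275 only.

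Megakaryocyte and platelet genes were high mainly in KO 275. Of 19 genes listed 17 were tested, all 17 with a positive fold change and a median of 2.21. The filter kept 3 of them with no WT vehicle count through other groups, so their sign was fixed in advance. Of the 17, 7 were higher with an unadjusted p under 0.05, beside 4.8% of all genes. KO 275 lay above the WT range in 15 of the 17, beside 23.5% of all genes, and KO 249 in 6, beside 22.2%. Gp5, a subunit of the platelet receptor for von Willebrand factor, had no count in the WT libraries, with 1.07 and 16.5 CPM in KO 249 and 275. Clec1b, the platelet receptor of podoplanin, had no WT count either, with 0.0895 and 29.6 CPM in KO 249 and 275. Against the floor of 3 counts over the WT group, Gp5 was at least 119-fold and Clec1b at least 202-fold higher on average. The average of Clec1b rests on KO 275, and that of Gp5 rests mostly on it. Treml1, a receptor stored in platelet granules, showed the same split, at 0, 0.0583 and 0 CPM in the WT libraries, 0.0895 CPM in KO 249 and 35.6 CPM in KO 275. Pf4, or platelet factor 4, was at 8.98, 4.43 and 4.93 CPM in the WT libraries, 2.15 CPM in KO 249 and 253 CPM in KO 275, so KO 249 was the lowest of the 5. Itga2b, the integrin alpha-IIb present on megakaryocytes and some stem cells, was at 16, 0.525 and 0.246 CPM against 26.3 and 62.2 CPM (2.98 ± 1.27). The median of the list was 0.35 without KO 275 and 5.71 without WT 240, whose summed level of 88.8 CPM was the highest of the WT libraries.

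Markers of cells outside the gate moved with KO 275 as well. The stromal and endothelial list had 17 tested genes of 18, with 14 above the WT range in KO 275 and 2 in KO 249, a lower share in KO 249 than over all genes. Its summed level was 11.8 to 81.9 CPM in the WT libraries, 55.1 CPM in KO 249 and 228 CPM in KO 275. Members at 0 numbered 8, 8 and 9 in WT 240, 253 and 265, 9 in KO 249 and 1 in KO 275. In 6 of the 17 a whole vehicle group had no count, so the filter kept them through other groups and these counts are a description. Col1a2, a chain of type I collagen, was at 0.775, 0.0583 and 0 CPM in the WT libraries, 0.0895 CPM in KO 249 and 32.2 CPM in KO 275. Lepr, which marks the perivascular cells that make CXCL12, was at 0 in 4 libraries and at 2.05 CPM in KO 275. The median log2 fold change of this list was 4.31, or 1.96 with members at 0 in a group set to their bound, and it was 0 without KO 275. The part of these cells in the red-cell and platelet values of KO 275 was not tested.

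Markers of other blood lineages gave mixed values. Of 15 T and NK cell genes tested, 7 lay above the WT range in KO 275, beside 23.5% of all genes, and 4 in KO 249, which is close to the 22.2% of all genes. A whole vehicle group had no count in 7 of the 15, and the filter kept these through other groups. Cd8a, a T cell co-receptor, was at 9.08 CPM in KO 275 and at 0, 0, 0.123 and 0 CPM in WT 240, WT 253, WT 265 and KO 249. Klrb1c, which encodes the NK cell antigen NK1.1, had no WT count and was at 1.34 and 0.900 CPM in the KO libraries, at least 15.2-fold higher. Prss34, a protease of basophils and mast cells, was at 130 CPM in KO 275 and at 0.0646 CPM or less in the other 4 libraries. Prg2, the eosinophil major basic protein, went the other way, at 10.7, 15.2 and 207 CPM in the WT libraries and 4.52 and 4.42 CPM in the KO libraries. Late neutrophil genes summed to 27935, 79783 and 44817 CPM in the WT libraries and 19607 and 43183 CPM in KO 249 and 275. KO 249 lay below the WT range in 10 of 20 neutrophil genes and KO 275 in 1, beside 13% and 12.3% of all genes. Mmp9, the gelatinase stored in neutrophil granules, was at 24.6, 25.6 and 11.1 CPM against 16.2 and 272 CPM, and Fcnb, a ficolin of maturing granulocytes, was lower in both KO libraries, at 577, 1450 and 880 CPM against 294 and 358 CPM.

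Of the antigen-presenting genes, those of MHC class II leaned lower and those of MHC class I changed little. The 17 genes tested of MHC class I and the immunoproteasome had a median of -0.06, with 6 positive and 11 negative. All 11 MHC class II genes had a negative fold change, with a median of -1.11. Only 1 did not overlap between groups, beside 7.47% of all genes on the lower side. It was H2-Oa, a chain that regulates peptide loading. The median was -0.36 without WT 240, where 2 genes turned positive, -0.47 without KO 249 and -2.26 without KO 275. H2-Oa was at 41.3, 12 and 19.3 CPM in the WT libraries and 10.2 and 8.27 CPM in the KO libraries. Cd74, the invariant chain of MHC class II, overlapped, at 3925, 2058 and 448 CPM against 352 and 1599 CPM. Dendritic cell genes were positive in 1 and negative in 8 of 9, with a median of -0.74, and their summed level was 493, 226 and 141 CPM in WT 240, 253 and 265 and 70.4 and 163 CPM in KO 249 and 275. The dendritic median was -2.31 without KO 275 and -0.38 without KO 249. Cd74 and the summed dendritic level both had their highest value in WT 240 and their lowest in KO 249, and the part of dendritic cells in the class II values was not tested.

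Of the receptors of the TGF-beta family, 3 were higher in both KO libraries than in any WT library. Tgfbr3, or betaglycan, the co-receptor that presents TGF-beta, was at 0.258, 0.0583 and 0.123 CPM in WT 240, 253 and 265 and at 4.43 and 4.54 CPM in KO 249 and 275. The log2 fold change was 4.88 ± 1.19 (edgeR adjusted p = 0.509), and it lay between 4.45 and 5.65 when any single vehicle library was left out. Eng, or endoglin, a co-receptor on stem cells and endothelium, was at 5.43, 1.63 and 6.16 CPM against 14.0 and 19.3 CPM (1.92 ± 0.81). Tgfbr1, the signalling receptor, was at 22.1, 1.17 and 0.493 CPM against 38 and 24.2 CPM. In these 3 genes no WT library reached a KO library, though WT 240 came close for Tgfbr1. The list of 20 TGF-beta and BMP genes as a whole had a median of 0.03, with 13 positive and 7 negative. In 3 of the 20 both KO libraries lay above the WT range and in 1 below it. Over all genes these shares were 13.2% and 7.47%, so the list was near them.

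Genes of many functions outside these lists also had libraries that did not overlap. The genes below are those with the smallest p among well-expressed genes whose libraries did not overlap, so their separation is part of how they were chosen. Cluh, which binds messenger RNAs of mitochondrial proteins, was at 24.2, 30.5 and 11.3 CPM in the WT libraries and 93.8 and 81.9 CPM in the KO libraries, a log2 fold change of 1.99 ± 0.52 (edgeR adjusted p = 0.522). Nup107, a scaffold protein of the nuclear pore, was at 35.5, 43.4 and 16.1 CPM against 129 and 105 CPM, and Ipo9, an import receptor for histones and ribosomal proteins, at 41.1, 21.7 and 31.3 CPM against 76.5 and 89.3 CPM. Both concern traffic through the nuclear pore. Ppat, the first committed enzyme of purine synthesis, was at 45.9, 35.8 and 53.9 CPM against 112 and 98.1 CPM. Alg1, a mannosyltransferase of N-glycan assembly, was at 3.30, 10.6 and 7.02 CPM against 33.3 and 26.9 CPM, and Tacc3, a spindle protein, at 87.8, 73.3 and 38.2 CPM against 167 and 166 CPM. The remaining genes on the higher side were Slc9a8, Exoc4, Slc7a5, Ap1g2, Pno1 and Dsn1, with log2 fold changes of 1.20 (Pno1) to 2.10 (Slc7a5).

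On the lower side, Zfp758, a zinc-finger gene, was at 27.5, 62.1 and 61.8 CPM in the WT libraries and 5.64 and 8.88 CPM in the KO libraries, a log2 fold change of -2.80 ± 0.65 (edgeR adjusted p = 0.502). Ccdc18, which encodes a coiled-coil protein, was at 50.8, 42.9 and 30.5 CPM against 12 and 8.84 CPM (-1.99 ± 0.51). Trim24, a chromatin reader and co-regulator of nuclear receptors, was at 10.4, 24.2 and 28.6 CPM against 4.83 and 2.7 CPM. These 3 genes had the smallest p on this side. Hexim1, an inhibitor of the elongation kinase P-TEFb, was at 15.8, 33.5 and 14.7 CPM against 4.25 and 5.97 CPM. The histone genes Hist1h2ac and Hist1h3d had log2 fold changes of -1.15 and -1.37, and reads of histone copies cannot be assigned with certainty. Zfp950, Kbtbd3, Cep290, Bbx and Pbx2 lay between -1.04 (Bbx) and -1.84 (Cep290).

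**Figure D2:**
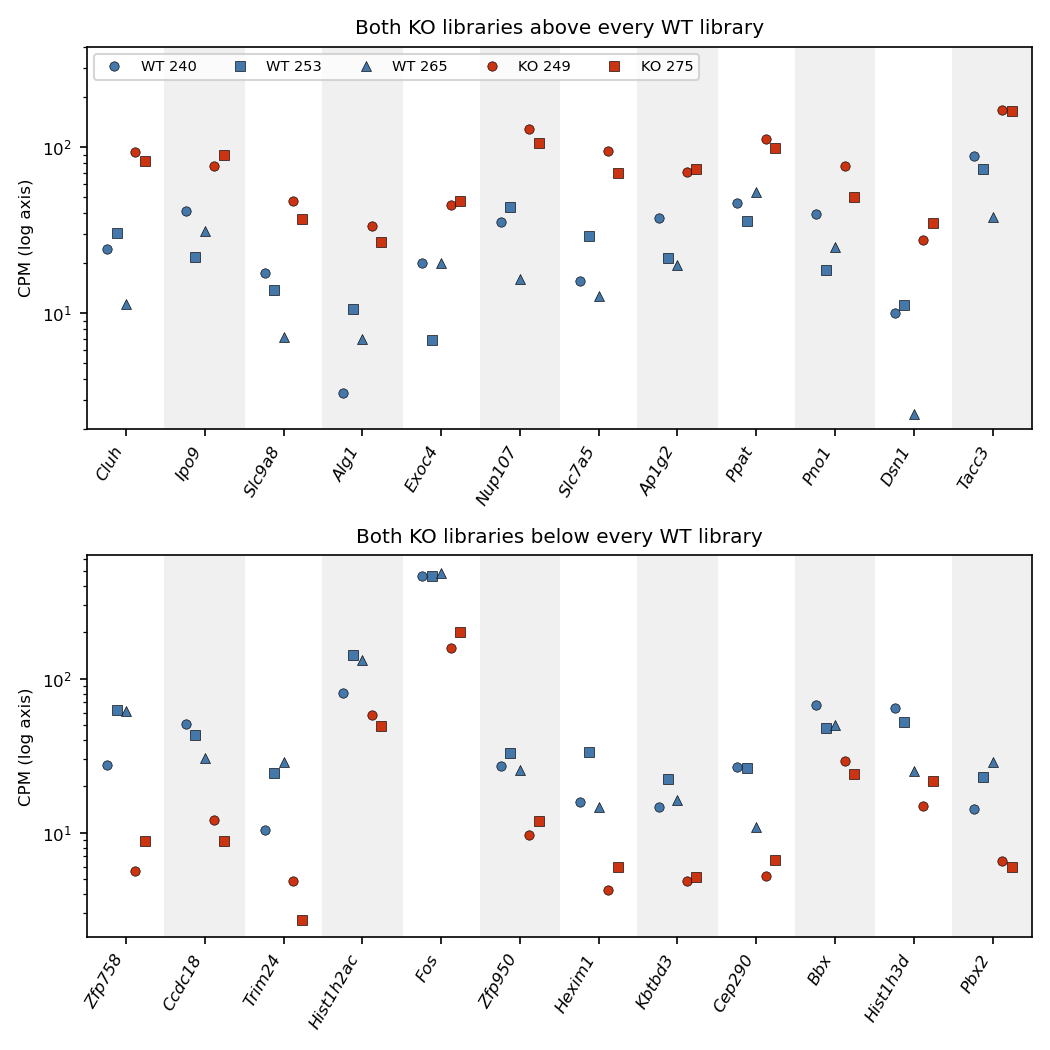
Level (CPM, log axis) in each of the 5 vehicle libraries of the 12 genes with the smallest p on each side among genes whose log2 CPM averaged 3 or more and whose groups did not overlap. Blue points are the 3 WT niche libraries and red points the 2 KO niche libraries, and the gap between colours follows from how the genes were chosen. The 2 red points lie close together in most genes, as in Cluh (93.8 and 81.9 CPM) and Fos (159 and 200 CPM).

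Genes of amino acid supply and stress translation had a positive median with either KO library left out. Of 30 genes of the ATF4 and unfolded protein response, 24 were positive and 6 negative, with a median of 0.48, which was 0.60 without KO 249 and 0.42 without KO 275. Both KO libraries lay above the WT range in 11, and 4 were higher with an unadjusted p under 0.05, beside 13.2% and 4.8% of all genes. Slc7a5, the LAT1 transporter of large neutral amino acids, was at 15.7, 29.0 and 12.7 CPM in WT 240, 253 and 265 and 94.5 and 69.6 CPM in KO 249 and 275, a log2 fold change of 2.10 ± 0.63 (edgeR adjusted p = 0.587). Asns, asparagine synthetase, was at 22.7, 33.1 and 19.2 CPM against 70.0 and 51.0 CPM, and Trib3, a pseudokinase induced by ATF4, at 0, 0 and 0.123 CPM against 3.85 and 1.43 CPM. KO 249 was the higher KO library in all 3, whereas KO 275 was in Epor, Add2, Rhag and Trim10. Of 40 genes of ribosome assembly and RNA polymerase I, 32 were positive and 8 negative, with a median of 0.13. In 10 both KO libraries lay above the WT range, beside 13.2% of all genes. KO 249 lay above the WT range in 20 and below it in 0, beside 22.2% and 13% of all genes. KO 275 lay above in 11 and below in 4, close to the 23.5% and 12.3% of all genes. The median was 0.38 without KO 275 and -0.08 without KO 249, with 18 positive and 22 negative, so its direction rests on KO 249. Rrs1, which acts in assembly of the large subunit, was at 42.7, 40.6 and 46.1 CPM against 81.3 and 75.8 CPM, and Rrp12, which takes part in export of the subunits, at 20.4, 18.8 and 24.1 CPM against 54.6 and 43.0 CPM. In both genes the 3 WT values were close together.

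Genes of DNA replication were slightly higher in most cases. Of 38 tested, 31 were positive and 7 negative, with a median of 0.33. In both KO libraries 9 lay above and 3 below the WT range, beside 13.2% and 7.47% of all genes. Orc1, the largest subunit of the origin recognition complex, was at 6.53, 0.117 and 0.246 CPM in the WT libraries and 18.7 and 22.3 CPM in the KO libraries. Cdc45, a part of the replicative helicase, was at 70.4, 58.0 and 43.2 CPM against 107 and 101 CPM. Pola1, the catalytic subunit of DNA polymerase alpha, was lower, at 96.7, 72.6 and 68.8 CPM against 47.0 and 45.1 CPM. Proliferation markers pointed in both directions: Ccnb1, the cyclin of mitotic entry, was at 71.7, 167 and 31.6 CPM against 215 and 207 CPM, whereas Mki67, present in cycling cells, was at 198, 214 and 257 CPM against 127 and 186 CPM. The list of 26 mitotic genes had a median of 0.19.

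Genes of the p53 pathway had a median of 0.52, with 15 positive and 8 negative of 23. It was 0.05 without KO 249, with 13 positive and 10 negative. Trp53 itself was at 141, 124 and 126 CPM in the WT libraries and 229 and 180 CPM in the KO libraries (0.65 ± 0.30). Phlda3, a p53 target that restrains AKT, was at 0.0646, 0 and 0 CPM against 0.806 and 4.99 CPM, and Aen, a p53-induced nuclease, at 30.9, 14.1 and 21.4 CPM against 46.1 and 47.3 CPM. Cdkn1a, the p21 inhibitor of the cell cycle, overlapped at 32.8, 12.7 and 2.96 CPM against 27.4 and 19.2 CPM. Trp53, Phlda3 and Aen separated the groups and Cdkn1a did not. Of the 23 genes, 4 lay above and 2 below the WT range in both KO libraries, near the 13.2% and 7.47% of all genes.

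Immediate early genes were lower. Of 21 genes of AP-1 and the immediate early response, 1 was positive and 19 negative, 1 had no count in any vehicle library, the median was -0.72, and 7 lay below the WT range in both KO libraries, beside 7.47% of all genes. Fos, a subunit of AP-1, was at 468, 466 and 489 CPM in WT 240, 253 and 265 and at 159 and 200 CPM in KO 249 and 275. The 3 WT values lay close together, and the log2 fold change was -1.40 ± 0.43 (edgeR adjusted p = 0.606). Jun, its partner, was at 309, 180 and 337 CPM against 132 and 145 CPM. Nr4a3, an orphan nuclear receptor induced within the same early wave, was at 1.42, 0.875 and 2.22 CPM against 0.0895 and 0 CPM. Nfkbia, the NF-kB inhibitor that NF-kB itself induces, was at 179, 168 and 147 CPM against 74.4 and 86.2 CPM, although the list of 23 NF-kB genes had a median of -0.23.

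Mitochondrially encoded genes had the lowest median of the lists, and ribosomal protein genes were also lower. The 13 genes of the mitochondrial genome all had a negative fold change (median -1.24). In 11 of them both KO libraries lay below the WT range, beside 7.47% of all genes. mt-Nd6, a subunit of complex I, was at 3124, 2824 and 1378 CPM in the WT libraries and 1089 and 673 CPM in the KO libraries. mt-Co2 was at 75.0, 60.7 and 38.4 CPM against 28.7 and 18.0 CPM. The order of the libraries was the same in both, with KO 275 lowest. Of 79 cytosolic ribosomal protein genes, 52 lay below the WT range in both KO libraries, beside 7.47% of all genes. Of the 79, 2 were positive and 77 negative, with a median of -0.59. Their summed level was 49452, 33418 and 57085 CPM in the WT libraries and 29423 and 28107 CPM in the KO libraries. Rps20, a protein of the small subunit, was at 757, 374 and 749 CPM against 276 and 267 CPM. With the spread estimated over all 11 libraries, no gene of these 2 lists had an unadjusted p under 0.05. Fitted on the vehicle libraries only, 20 ribosomal protein genes and 9 mitochondrially encoded genes were lower at that level, beside 1.02% of all genes. The share of reads outside genes, 18.0% to 28.8% in the WT libraries and 18.8% and 9.41% in KO 249 and 275, differed beside them. With that share as a covariate the ribosomal protein median was 0.16 and the mitochondrial one -0.53. Nuclear genes of oxidative phosphorylation had a median of -0.06 over 75 genes.

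**Figure D3:**
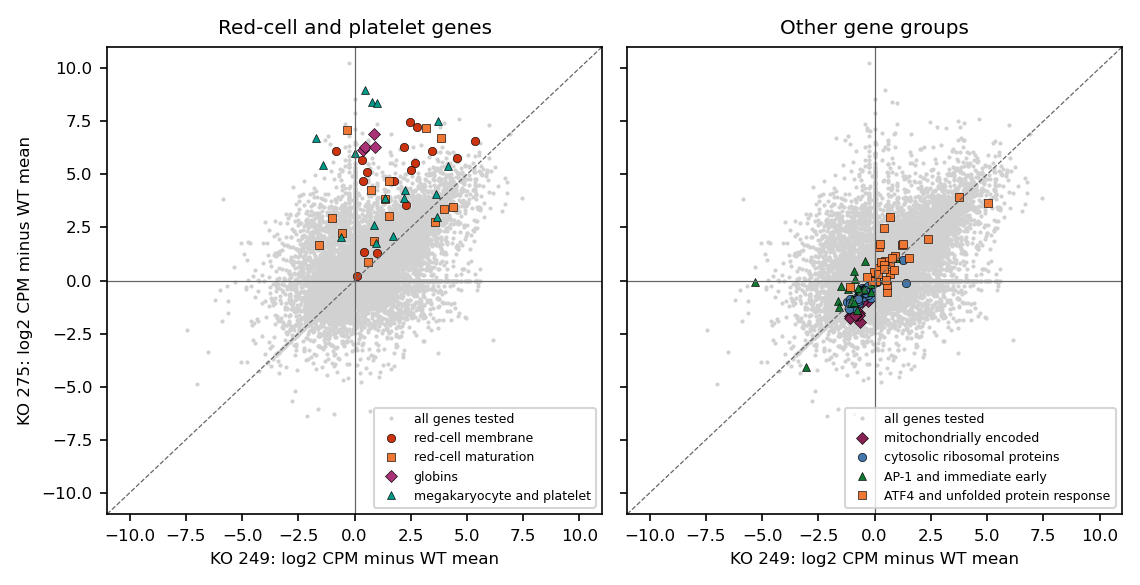
Log2 CPM of each tested gene in KO 249 (horizontal axis) and KO 275 (vertical axis), each minus the mean of the 3 WT libraries, so that points on the dashed diagonal differ equally in both KO libraries and grey points are all genes tested. Left, red-cell and platelet genes lie mostly above the diagonal, further from 0 in KO 275 than in KO 249. Right, ribosomal protein, mitochondrially encoded and AP-1 genes lie mostly in the lower left and ATF4 genes mostly in the upper right, near the diagonal. Both axes share the same WT mean, which can by itself align points along the diagonal.

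The pathways named by the study gave small or mixed values. Cxcr4, the CXCL12 receptor, was at 75.1, 20.1 and 18.7 CPM in WT 240, 253 and 265 and 63.1 and 106 CPM in KO 249 and 275, with overlap and a log2 fold change of 1.15 ± 0.60 (edgeR adjusted p = 0.733). The 22 genes of CXCR4 signalling had a median of -0.04, with 9 positive and 13 negative. Pik3r5, a regulatory subunit of the phosphoinositide kinase downstream of G proteins, was at 16.1, 13.8 and 11.9 CPM against 26.3 and 33.1 CPM. Prkcz, an atypical protein kinase C, was at 2.84, 0.350 and 0.246 CPM against 0.179 and 0.0818 CPM. Receptor and downstream genes thus did not share a direction.

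Among 26 p38 MAPK genes tested of 28 listed, 17 were positive and 9 negative, with a median of 0.32. Mapk14, which encodes p38 alpha, the main kinase in blood cells, was at 209, 140 and 216 CPM in the WT libraries and 232 and 216 CPM in the KO libraries (0.25 ± 0.40, edgeR adjusted p = 0.972). RNA counts do not measure the phosphorylated, active kinase. Mapk12, or p38 gamma, had no WT count and was at 0.269 and 2.58 CPM in KO 249 and 275. Its KO mean was at least 19.3-fold higher against the floor. That mean rests mostly on KO 275, and KO 249 held 6 counts. Tab2, an adaptor of the kinase TAK1 upstream of p38, was lower, at 47.8, 52.3 and 67.6 CPM against 23.9 and 22.2 CPM (-1.28 ± 0.46). Dusp10, a phosphatase that acts on p38 and JNK, was at 0.646, 0 and 0 CPM against 1.48 and 4.83 CPM. In 8 of the 26 genes both KO libraries lay above the WT range and in 1 below it, beside 13.2% and 7.47% of all genes. In the list of FLT3 and STAT5 genes 5 were positive and 14 negative, with a median of -0.22, and Flt3 itself was at 340, 70.6 and 148 CPM against 174 and 72.9 CPM.

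**Figure D4:**
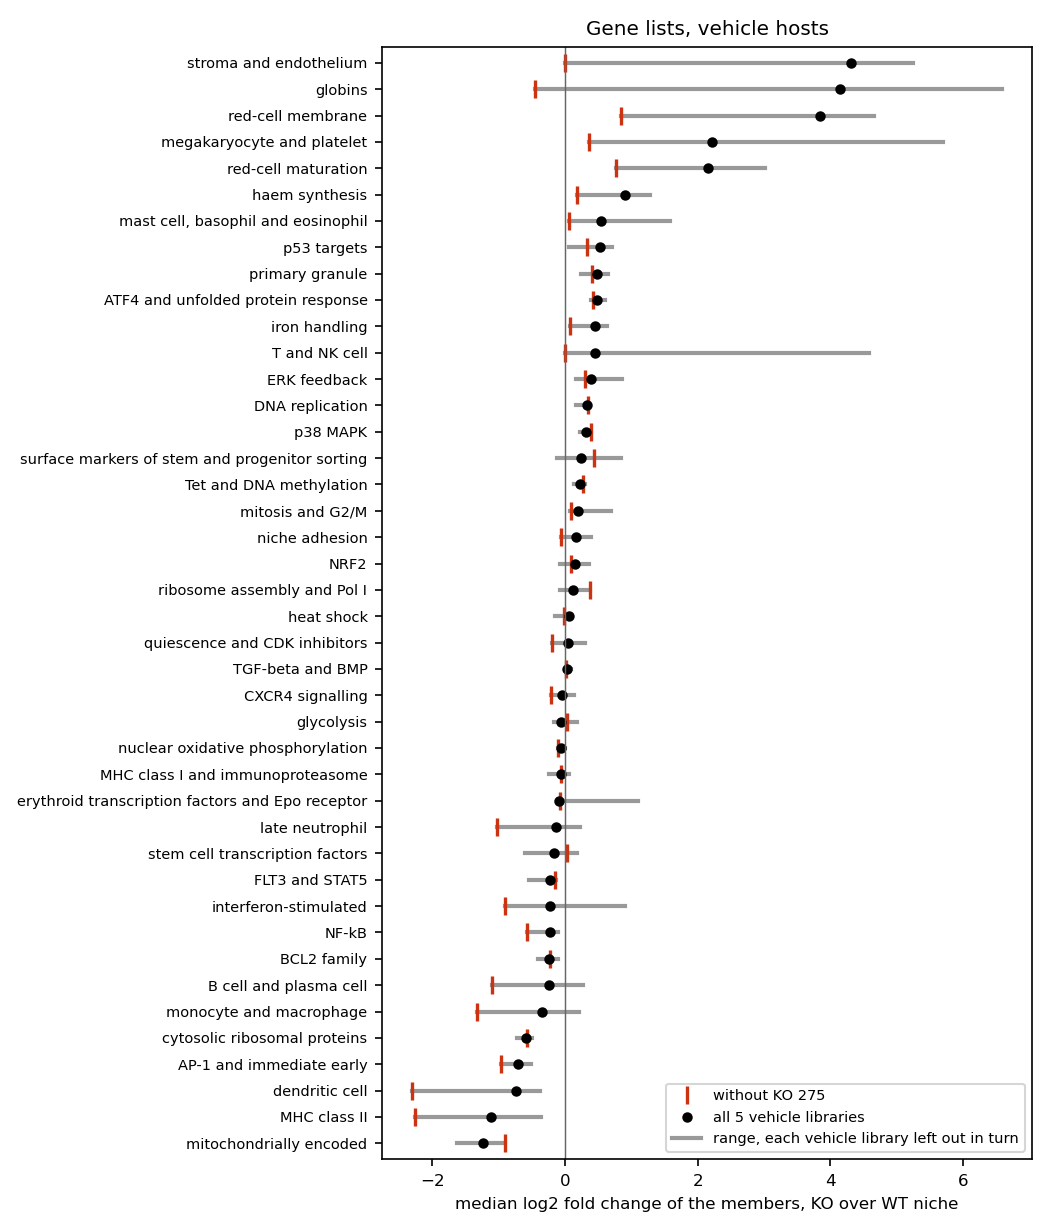
Median log2 fold change of the tested members of each gene list except the sex-linked one, KO over WT niche in vehicle hosts. Black points use all 5 libraries, grey bars span the values with each vehicle library left out in turn, and red ticks show the value without KO 275. Without KO 275 the median went from 3.85 to 0.85 for red-cell membrane genes and from 4.15 to -0.45 for globins, became more negative for late neutrophil (-0.14 to -1.02), monocyte (-0.35 to -1.33) and dendritic cell genes (-0.74 to -2.31), and moved little for primary granule genes (0.48 to 0.41), and the ribosomal protein and mitochondrially encoded lists stay below 0 with any 1 vehicle library left out.

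The same comparison in treated hosts uses other libraries on both sides, and the difference between the comparisons was tested for each gene. No gene of 16639 passed (0%), the smallest edgeR adjusted p was 0.628, and 1050 genes had an unadjusted p under 0.05 (6.31%). The treated comparison on its own also called 0 genes (0%). The red-cell membrane list had a median of 3.85 in vehicle and 6.35 in treated hosts, and the maturation list 2.16 and 3.45. Epor had a log2 fold change of 5.97 ± 1.23 in vehicle and 4.58 ± 1.07 in treated hosts, and Slc7a5 2.10 ± 0.63 and 2.23 ± 0.59. The ATF4 and unfolded protein response list, which holds Slc7a5, had a median of 0.48 in vehicle and 0.02 in treated hosts. The megakaryocyte list was 2.21 in vehicle and 0.30 in treated hosts, with Treml1 at 9.27 ± 2.53 and -3.72 ± 1.86. Zfp758 was at -2.80 ± 0.65 and 0.16 ± 0.52, and Fos at -1.40 ± 0.43 and -0.01 ± 0.36. For Treml1, Zfp758 and Fos the difference between vehicle and treated hosts had an edgeR adjusted p of 0.767, so none of these contrasts between conditions passed the test. Mitochondrially encoded genes had a median of -1.24 in vehicle and 0.25 in treated hosts.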

How the data were processed

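ST-HSC libraries were made with the RNeasy Plus Micro, SMARTer Ultra Low Input and Nextera XT kits, per the labels' protocols. The authors deposited a table of raw counts, whole numbers with no scaling, for 53700 Ensembl genes and 5 summary lines, which were dropped. The submitters' processing notes name STAR 2.7.9a, HTSeq (given as 0.6.7), Trim Galore 0.6.7, bcl2fastq, DESeq2 and build GRCm39. The annotation release and the strand setting are not given in the sources used here, and these kits keep no strand, so reads of antisense or overlapping genes cannot be told apart. Symbols came from a GENCODE annotation of an earlier build by stable identifier (52093 of 53700).

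In R 4.3.3, edgeR 4.0.16 fitted all 11 libraries with 4 groups (TMM, filterByExpr, robust quasi-likelihood, 7 residual degrees of freedom), which gives the groups 1 estimate of the spread, and p-values were adjusted by Benjamini-Hochberg over 16639 genes. The contrast was KO minus WT in vehicle hosts. SE is the absolute log2 fold change over the square root of the F statistic. Where a group had no count, the fold is a bound against 3 counts over the group, which covers counting error only. CPM values use TMM-scaled totals. The script was tested on simulated counts.

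The members and the 43 lists (863 distinct genes, 861 matched) were chosen with earlier results of these data known, so lists have counts and medians and no test. Genes named are the 12 with the smallest p per direction among non-overlapping genes with a mean log2 CPM of at least 3, up to 3 per list with the smallest p, and 22 set genes. Only some of these appear in the text. Alternatives were DESeq2 size factors, no filter, DESeq2 1.42.0, vehicle libraries only, a covariate for reads outside genes (their share), removal of a transcript-length trend, leaving out each library (a lone KO library is then assumed to vary like the other groups), and leaving out WT 253 and 265.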

Additional observations from a re-analysis of the deposited data

How the results depend on the processing

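Depth and spread limit every value here: the median SE of a log2 fold change was 0.917, and WT 265 had 8.13 M gene counts. The 0 called genes of edgeR became 11 without the filter on low counts, 224 with DESeq2's Wald test and 0 to 49 when 1 library was left out, where 49 was without WT 240. Leaving out 1 library or the pair WT 253 and 265 changed directions, given below, and the cause was not tested. The median over all genes was 0.15 without WT 253 and 265, so values for that setting are relative to it. Of the genes named in the text, 82 kept their direction under all alternatives run and 19 did not. Many of these genes were chosen with libraries that did not overlap, and leaving out a library can hardly turn such a gene. The count of 82 is therefore partly set by that choice and does not measure robustness. Without the filter, Epor and Add2 had an edgeR adjusted p of 0.0125 and Clec1b of 0.0163, and without WT 240 Orc1, Itga2b and Tgfbr1 had 0.0428. DESeq2's Wald test gave 27 of the genes named in the text an adjusted p under 0.05. Among them were Epor (9.6e-05) and Trim10 (5.3e-05) on the higher side and Zfp758 (3.6e-04) on the lower side. No paired analysis was possible because the WT and KO groups share no replicate number.

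Log2 fold changes that turned sign without KO 275 were, as ranges over leaving out 1 library, -1.26 to 7.04 for Cd36, -1.47 to 5.38 for Pf4, -2.64 to 9.77 for Cd8a, -2.38 to 13.56 for Prss34, -0.32 to 3.73 for Mmp9, -0.31 to 7.24 for Hbb-bs, -0.59 to 6.50 for Hba-a1, -1.54 to 8.58 for Col1a2 and -0.088 to 2.73 for Gata1. Other libraries turned Flt3 (-1.31 to 0.18), Cd34 (-0.39 to 0.90), Cxcl12 (-9.67 to 5.66), Ly6a (-0.12 to 2.58) and Cd48 (-0.25 to 0.40). Without WT 253 and 265, Cdkn1a was -0.39, Cd34 -0.41 and Ly6a -0.79. With the covariate for reads outside genes, Kit was -0.29, Tet2 -0.43, Mapk14 -0.16, Mpo -0.29 and Cd48 0.43, and without the length trend Cd48 was 0.10.

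List medians, as ranges over leaving out 1 library, were -0.13 to 1.09 for erythroid transcription factors, 0.18 to 1.29 for haem synthesis, -0.45 to 6.60 for globins, 0.85 to 4.65 for red-cell membrane, 0.77 to 3.02 for red-cell maturation and 0.35 to 5.71 for megakaryocyte genes. They were -1.02 to 0.23 for late neutrophil, -2.31 to -0.38 for dendritic cell, -1.10 to 0.27 for B cell, 0 to 4.58 for T and NK cell and 0 to 5.25 for stromal genes. They were -2.26 to -0.36 for MHC class II, -1.33 to 0.21 for monocyte, 0.052 to 0.71 for p53, 0.069 to 0.69 for mitotic, -0.57 to -0.11 for NF-kB and -0.55 to -0.13 for FLT3 and STAT5 genes. They were 0.16 to 0.85 for ERK feedback, 0.16 to 0.38 for DNA replication, -0.11 to 0.0059 for nuclear oxidative phosphorylation, -0.17 to 0.18 for glycolysis, -0.081 to 0.38 for ribosome assembly, -0.079 to 0.36 for NRF2 and -1.22 to -0.52 for sex-linked genes. With the covariate, medians were 0.0028 for haem synthesis, 2.06 for red-cell membrane, 0.018 for p38 MAPK, 0.29 for MHC class I, 0.18 for DNA replication, 0.16 for ribosomal proteins, -0.53 for mitochondrially encoded genes, 0.40 for oxidative phosphorylation, 0.35 for ribosome assembly, 0.21 for ATF4, -0.13 for NRF2, -0.26 for Tet and DNA methylation and -1.18 for sex-linked genes. Without WT 253 and 265 they were 0.35 for erythroid transcription factors, 0.064 for p53, 1.03 for primary granule, 0.63 for p38 MAPK, 0.12 for FLT3 and STAT5, 0.62 for DNA replication, 0.051 for oxidative phosphorylation, 0.62 for glycolysis, 0.49 for ribosome assembly, 0.66 for NRF2 and 0.54 for Tet and DNA methylation genes. Oxidative phosphorylation was at -0.12 with DESeq2 size factors or its Wald test and 0.064 without the length trend.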

Other observations

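Several groups not described above held genes with separated libraries, as did 20.7% of all genes tested. In the BCL2 family list 1 of 16 genes lay above and 1 below the WT range in both KO libraries. In the heat shock list 2 of 12 lay above and 1 below, beside 13.2% and 7.47% of all genes. Dnmt1, the maintenance DNA methyltransferase, was at 198, 227 and 221 CPM in WT 240, 253 and 265 and 321 and 289 CPM in KO 249 and 275, in a list of 10 Tet and DNA methylation genes with a median log2 fold change of 0.22. Tet3, of the same list, went the other way, at 36.1, 50.4 and 68.2 CPM against 21.7 and 35.9 CPM. Hk1, a hexokinase, was at 95.8, 132 and 83.0 CPM against 176 and 160 CPM, while Aldoc, an aldolase, was lower, at 25.8, 16.4 and 14.5 CPM against 10.0 and 3.31 CPM. The 19 glycolysis genes had a median of -0.06, so these 2 enzymes stood on opposite sides of it. Hmox1, which breaks down haem and is induced by NRF2, was at 11.1, 4.61 and 0.246 CPM against 15.5 and 40.1 CPM. Hspd1, the mitochondrial chaperonin, was at 234, 220 and 289 CPM against 417 and 367 CPM. Bcl2l1, a survival gene that red-cell precursors also use, was at 27.5, 21.6 and 7.39 CPM against 29.5 and 50.0 CPM. Ctsg, a protease of primary granules, was at 1055, 2253 and 894 CPM against 2427 and 2636 CPM, and Myb, a factor of progenitors, at 123, 158 and 203 CPM against 229 and 213 CPM. Irf8, the factor that directs progenitors to monocytes and dendritic cells, was lower, at 433, 461 and 435 CPM against 188 and 403 CPM.

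Transcripts of the inactive X and of the Y chromosome were found in the same libraries. Xist, chosen after its values were seen, was at 14.9, 0 and 80.7 CPM in WT 240, 253 and 265 and 11.3 and 41.9 CPM in KO 249 and 275. Eif2s3y was at 43.2, 44.6 and 14.4 CPM against 26.2 and 19.6 CPM. Both were thus present in 4 of the 5 vehicle libraries, and WT 253 held no Xist count. The labels do not give the sex of host or donor.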
